A study of Danio rerio with 12 samples.

Results

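The genes described here are 6 transcription factor genes of the embryonic gut wall and its surroundings: foxf1, foxf2a, foxf2b, barx1, nkx3.3 and osr1. They are 6 of the 25680 genes in the deposited zebrafish count tables and were found by their symbols. They had been picked by name with their values in the mutant hearts already known, so every heart value of these 6 genes is a description and carries no test. They are tested in the embryo libraries, but whether the embryo values had a part in that choice is not recorded, so those tests are not independent of it.

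The study compared zebrafish with inactivating mutations in both tet2 and tet3 (DM) with control fish, by sequencing of total RNA. Tet2 and Tet3 are dioxygenases that oxidise 5-methylcytosine in DNA. At 48 hours post fertilisation (hpf) there were 2 libraries of dissected hearts each from DM fish, from their siblings and from wild type (WT) fish, numbered 1 and 3. At 25 hpf there were 3 whole-embryo libraries from DM fish and 3 from siblings. The siblings were a mixture of wild type fish and fish heterozygous for tet2, tet3 or both, so a sibling library may hold RNA of several genotypes. The labels give every library the strain background AB, but also say that wild type embryos came from crosses between AB and TU, so the WT hearts may differ in strain from the others. No fish was treated. The alleles and the number of animals in a library are not given in the labels. The hearts were dissected by hand and their RNA was amplified before the libraries were made, which was not done for the embryos, so age, tissue and preparation cannot be told apart between hearts and embryos.

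The gut tube forms from endoderm wrapped in splanchnic mesoderm, a mesenchyme that gives rise to the smooth muscle and connective tissue of the oesophagus, stomach, swim bladder and intestine. Endoderm secretes Hedgehog ligands, and in the mouse the mesenchyme answers through Ptch and Gli proteins with expression of the forkhead genes Foxf1 and Foxf2. Homeobox genes then divide that mesenchyme along the gut: mouse Barx1 marks the stomach, and genes of the NK3 class mark visceral mesoderm in the fly and parts of the gut wall and arches in vertebrates. In the zebrafish embryo the pharynx, the foregut and the heart lie next to each other.

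In all, the heart libraries held 3289161 to 5963478 counts and the embryo libraries 8341467 to 16700992. Levels are given as CPM, counts scaled to a common library total, without division by gene length, and are therefore compared between libraries and not between genes. A gene with no count could still have up to 3 counts, which is 0.503 to 0.912 CPM in a heart library and 0.180 to 0.360 CPM in an embryo library. The hearts differed in their content. A list of 15 cardiomyocyte genes took 6.33% and 8.34% of all counts in DM hearts, 2.95% and 5.96% in sibling hearts, and 9.85% and 4.96% in WT hearts. Lens and retina genes took 0.154% of counts in DM heart 1 and 0.345% in sibling heart 1, and at most 0.00673% in the other 4 hearts. Transcripts of the mutated genes were present everywhere, at 77.7 to 351 CPM for tet2 and 35.0 to 119 CPM for tet3. The main edgeR fit called neither gene different in any comparison, but it called no gene at all in any of them. Since an inactivating mutation need not lower its transcript, these levels do not check the genotype.

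The forkhead genes were low in DM hearts. foxf1 encodes a transcription factor of the splanchnic mesoderm and lies on chromosome 18 at 30868983-30872111 (GRCz10, identifier ENSDARG00000015399). It had 2.21 and 0.942 CPM in DM hearts (12 and 4 counts), against 42.3 and 40.8 CPM in sibling hearts (139 and 183 counts) and 19.1 and 5.82 CPM in WT hearts (114 and 30 counts). Both DM hearts were below all 4 control hearts, and the siblings were above both WT hearts. Pooled over the libraries, foxf1 took a 25.1-fold smaller share of counts in DM than in sibling hearts (95% exact interval 15.2 to 44.4) and a 7.84-fold smaller share than in WT hearts (4.67 to 14.1). These intervals, exact Clopper-Pearson intervals from the pooled counts, cover counting error only and not the spread between libraries.

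foxf2a and foxf2b are the zebrafish duplicates of Foxf2, which in the mouse is active in gut and palate mesenchyme and in brain pericytes. foxf2a (ENSDARG00000017195) lies on chromosome 2 at 840714-844060, and foxf2b (ENSDARG00000070389) on chromosome 20 at 26790946-26793854. foxf2a had 2.02 and 2.59 CPM in DM hearts (11 counts each), against 126 and 35.3 CPM in sibling hearts (416 and 158 counts) and 42.9 and 3.69 CPM in WT hearts (256 and 19 counts). The DM hearts were again the lowest of the 6, but WT heart 3 stood only just above them, and the siblings differed from each other more than for foxf1. Its pooled share was 32.5-fold smaller in DM than in sibling hearts (95% exact interval 21.3 to 52.3) and 10.9-fold smaller than in WT hearts (7.05 to 17.7). foxf2b was scarce in every heart, with 0.368 and 0.942 CPM in DM hearts (2 and 4 counts), 3.65 and 3.79 CPM in sibling hearts (12 and 17 counts) and 0.838 and 1.94 CPM in WT hearts (5 and 10 counts). Here the DM hearts were below both siblings and overlapped the WT hearts, and the interval of the pooled fold difference from WT ran from 0.799 to 6.85. How the authors' counting treated reads that fit both duplicates is not given in the sources used here, so the split between foxf2a and foxf2b is uncertain.

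barx1 was near its DM level in 1 of the 4 control hearts. It encodes a homeobox transcription factor of stomach mesenchyme in the mouse and of the pharyngeal arch mesenchyme in zebrafish, and lies on chromosome 11 at 27295919-27298545 (ENSDARG00000007407). It had 2.39 and 0.471 CPM in DM hearts (13 and 2 counts), against 81.2 and 59.6 CPM in sibling hearts (267 counts each) and 75.3 and 0.388 CPM in WT hearts (449 and 2 counts). The other 3 control hearts were therefore high, while WT heart 3 was lower than both DM hearts. The pooled share was 44.4-fold smaller in DM than in sibling hearts (95% exact interval 26.7 to 79.9). Against WT hearts it was 26.2-fold smaller, a value that rests wholly on WT heart 1.

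nkx3.3 is a homeobox gene of the NK3 class, related to fly bagpipe, which acts in visceral mesoderm. It lies on chromosome 13 at 40271627-40275980 (ENSDARG00000069327). It had 0.368 and 0 CPM in DM hearts (2 and 0 counts), against 26.8 and 12.5 CPM in sibling hearts (88 and 56 counts) and 10.2 and 3.88 CPM in WT hearts (61 and 20 counts). The DM hearts were at or under the level of 3 counts, and all 4 controls were above it. The pooled share was 89.8-fold smaller in DM than in sibling hearts, with a counting interval of 24.4 to 748, and 35.3-fold smaller than in WT hearts, with an interval of 9.46 to 296. Both intervals are wide because the DM hearts held 2 counts together.

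osr1 encodes a zinc finger factor related to fly odd-skipped that acts in lateral and intermediate mesoderm, the source of the zebrafish pronephros. It lies on chromosome 13 at 32013920-32019993 (ENSDARG00000014091). It had 0.368 and 1.41 CPM in DM hearts (2 and 6 counts), against 12.5 and 12.9 CPM in sibling hearts (41 and 58 counts) and 9.73 and 2.52 CPM in WT hearts (58 and 13 counts). The siblings were close to each other, and the DM hearts were again the lowest. The pooled share was 15.4-fold smaller in DM than in sibling hearts (7.53 to 36.7) and 7.73-fold smaller than in WT hearts (3.72 to 18.6).

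**Figure D1:**
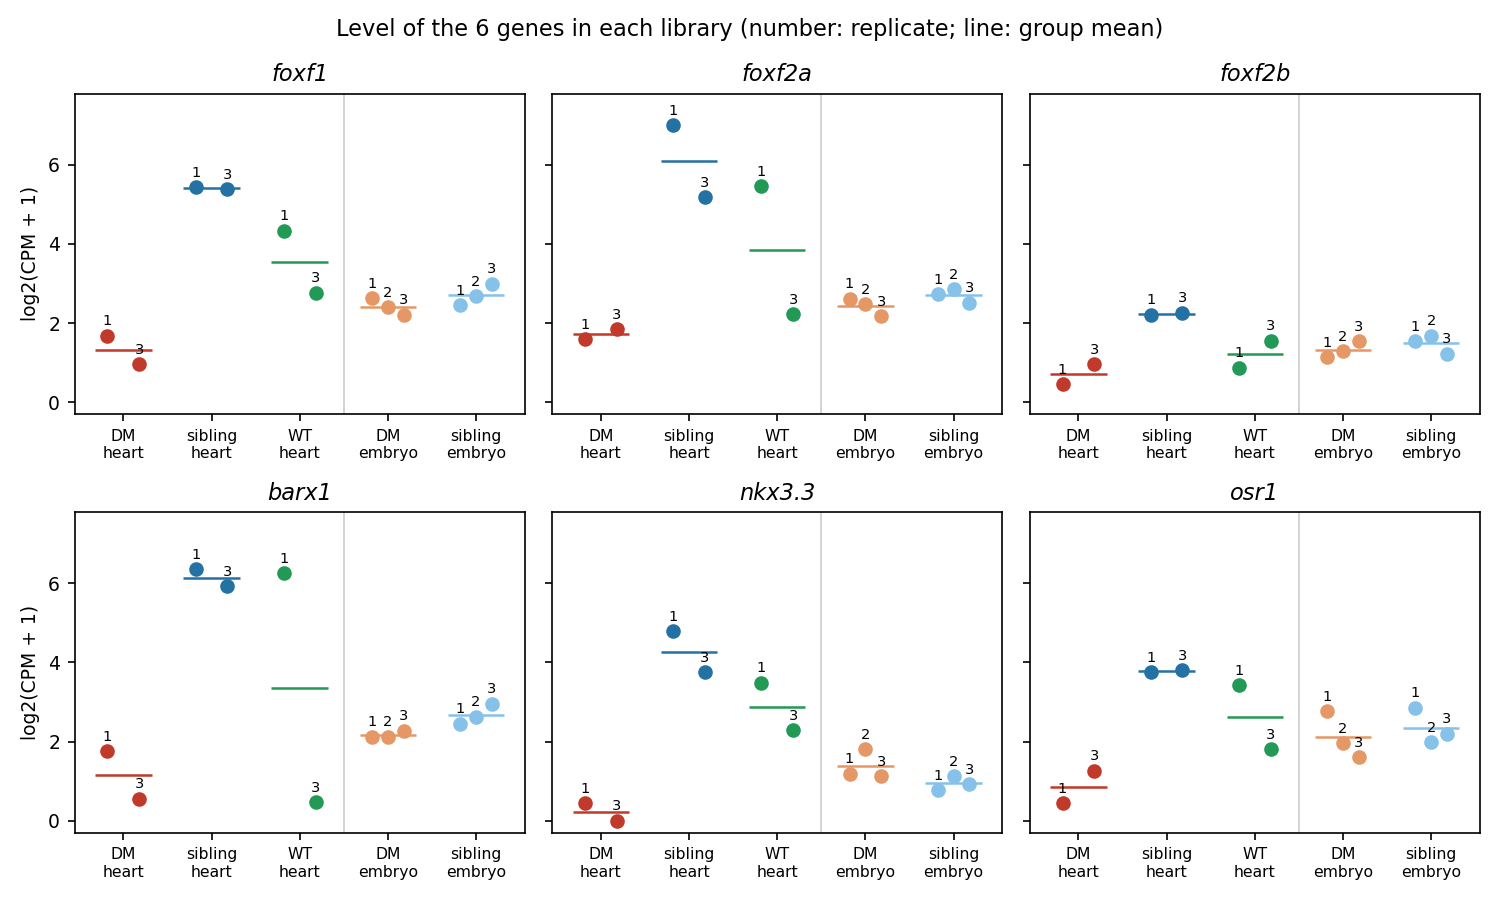
Level of each gene in each of the 12 libraries, as log2(CPM + 1) on the vertical axis; columns are the groups, each point is a library with its replicate number and the line is the group mean. All 6 genes are lower in both DM hearts than in both sibling hearts, and WT heart 3 is the lowest control for 5 of them. The embryo libraries of both genotypes lie at similar levels, between the DM and the sibling hearts.

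Across the heart libraries foxf2b followed the other members less closely than they followed each other. Summed, the 6 genes took 7.72 and 6.36 CPM in DM hearts, against 293 and 165 CPM in sibling hearts and 158 and 18.2 CPM in WT hearts. Both DM hearts were below both sibling hearts for 6 of 6 genes, a pattern shown by 15% of the 16998 genes tested in hearts. Both were below both WT hearts for 4 of 6 (8.99% of all genes), the exceptions being foxf2b and barx1. They were below all 4 control hearts for the same 4 (4.3% of all genes). With WT heart 3 set aside, the DM hearts were below the other 3 controls for 5 of 6, against 6.46% of all genes. As the genes had been picked with these hearts in view, nothing is read from these counts. WT heart 3 was the lowest control for 5 of 6 genes, all but foxf2b, where 28% of all genes had it lowest. In bulk RNA of this kind, fewer cells of a type and less RNA per cell cannot be told apart. Nor can either be told apart from unequal amounts of adjoining tissue in hearts dissected by hand. Whether the dissections differed in this is not stated, and it was not tested.

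Pairwise correlations of log2(CPM + 1) over the 6 hearts ran from 0.50 to 0.98 with a median of 0.91 over the 15 pairs. foxf1 and nkx3.3 were the closest pair (Pearson r = 0.98), and foxf2b and barx1 the least close (r = 0.50). Over the 6 embryos the same correlations ran from -0.60 to 0.74 with a median of -0.035. All points of one library share its tissue content and depth, so these values only describe the libraries. The genes were also picked with their DM heart values known, so high correlations over the hearts follow in part from that choice. Levels differed far less among embryos than among hearts, so nothing is read from the difference between the correlations of embryos and hearts.

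Fitted across all genes with edgeR, the log2 fold changes of DM against sibling hearts were -6.44 ± 1.08 (SE) for nkx3.3, -5.58 ± 1.86 for barx1 and -5.11 ± 1.25 for foxf2a. Those of foxf1, osr1 and foxf2b were -4.71 ± 0.76, -3.84 ± 0.96 and -2.50 ± 0.97. Their median was -4.91, beside 0.036 for all genes tested. Against WT hearts all 6 differences were smaller in size, from -5.28 ± 1.06 for nkx3.3 to -1.34 ± 0.98 for foxf2b, with a median of -3.47 beside 0.017 for all genes. Both comparisons use the same DM hearts. The fitted log2 fold changes of sibling against WT hearts ran from 0.57 for barx1 to 1.46 for foxf2a, but the libraries overlapped for barx1 and foxf2a, and the values moved with a single WT library. Without WT heart 1 they were 7.18 for barx1, 4.19 for foxf2a, 2.60 for foxf1, 2.09 for osr1, 2.08 for nkx3.3 and 0.70 for foxf2b. Without WT heart 3 they were -0.40 for barx1, 0.59 for foxf2a, 0.83 for foxf1, 0.093 for osr1, 0.63 for nkx3.3 and 1.83 for foxf2b.

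A single WT library sets much of the size of the difference from WT. Without WT heart 1, the log2 fold change of DM against WT hearts was 1.58 for barx1, which is a change of sign, and -0.93 for foxf2a, -1.76 for osr1, -1.80 for foxf2b, -2.12 for foxf1 and -4.37 for nkx3.3. Without WT heart 3 it was -5.99 for barx1, -4.53 for foxf2a, -3.76 for osr1, -0.67 for foxf2b, -3.90 for foxf1 and -5.82 for nkx3.3. Against siblings, leaving out DM heart 1, which held more lens transcripts than DM heart 3, gave -7.09 for barx1, -5.38 for foxf1, -4.88 for foxf2a, -3.10 for osr1, -1.91 for foxf2b and -9.35 for nkx3.3. The value of nkx3.3 there is set by the empty count of DM heart 3 and is no bound. Leaving out DM heart 3 gave -4.96 for barx1, -4.32 for foxf1, -5.38 for foxf2a, -5.11 for osr1, -3.35 for foxf2b and -5.72 for nkx3.3. Without sibling heart 1, foxf2a stood at -3.99 and nkx3.3 at -5.87, and without sibling heart 3 foxf2a stood at -5.75. Without the sibling and DM hearts numbered 1 together, foxf2a stood at -3.76.

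**Figure D2:**
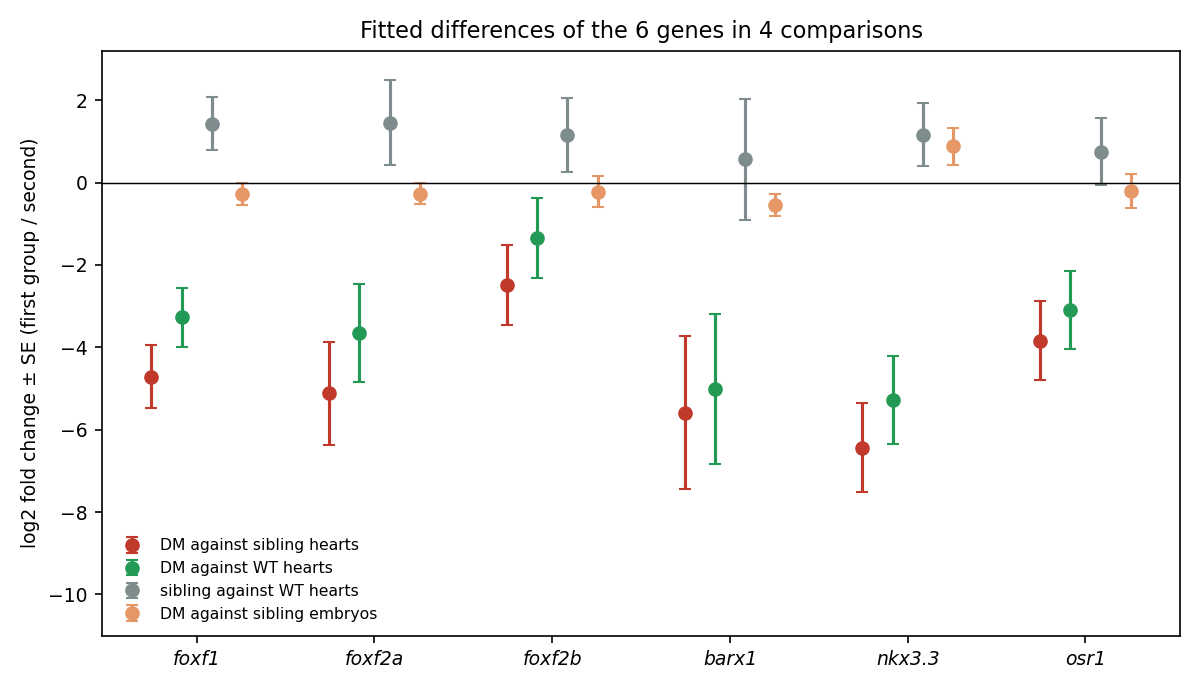
Log2 fold change from edgeR, with a standard error derived from its F statistic (vertical axis, first-named group over second), for each of the 6 genes in 4 comparisons. DM hearts lie between -6.44 and -2.50 relative to sibling hearts and between -5.28 and -1.34 relative to WT hearts, while in embryos the values lie between -0.55 and 0.88.

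No gene of the whole table was called by edgeR's quasi-likelihood test at a false discovery rate of 0.05 in DM against sibling embryos (0% of 17831 genes tested), where 585 had an unadjusted p under 0.05 and DESeq2 called 36 (0.15% of the genes it tested, none of these 6). For the 6 genes the embryos were close between genotypes. foxf1 had 5.22, 4.32 and 3.64 CPM in DM embryos, against 4.49, 5.40 and 6.98 CPM in sibling embryos. foxf2a had 5.14, 4.56 and 3.54 CPM in DM embryos, against 5.63, 6.21 and 4.73 CPM in sibling embryos. Both pairs of ranges overlapped, with log2 fold changes of -0.28 ± 0.26 and -0.27 ± 0.26 (SE). foxf2b differed by -0.22 ± 0.38 and osr1 by -0.20 ± 0.41 between ranges that overlapped as well, 1.21 to 1.93 CPM in DM and 1.35 to 2.22 CPM in sibling embryos for foxf2b, and 2.04 to 5.79 CPM in DM and 2.96 to 6.23 CPM in sibling embryos for osr1. Within the equally numbered pairs, DM was the lower in 3 of 3 for foxf2a and osr1 and in 2 of 3 for foxf1 and foxf2b.

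The remaining genes differed in opposite directions. barx1 had 3.38, 3.36 and 3.86 CPM in DM embryos, against 4.49, 5.18 and 6.75 CPM in sibling embryos. All 3 DM embryos were below all 3 siblings, which held for 1 of the 6 genes and for 2.97% of all genes, and the log2 fold change was -0.55 ± 0.26 (edgeR adjusted p = 0.722). nkx3.3 had 1.29, 2.52 and 1.18 CPM in DM embryos, against 0.718, 1.18 and 0.900 CPM in sibling embryos, so that each DM embryo was above the sibling of the same number. Its log2 fold change was 0.88 ± 0.46 (edgeR adjusted p = 0.722), the other direction from that in hearts. Equally numbered embryo libraries deviated together, and with the number as a block edgeR called 13.8% of all genes and 0 of these 6. At such a share 0 of 6 is unremarkable, so nothing is read from it. The blocked adjusted p values were 0.0909 for barx1 and 0.0910 for nkx3.3. When a trend with gene span was also removed, barx1 passed (log2 fold change -0.72, edgeR adjusted p = 0.0286). Over all other alternatives its adjusted p lay at 0.0909 or above. No fit called any of foxf1, foxf2a, foxf2b, nkx3.3 or osr1.

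Set beside the embryos, the DM and sibling hearts lay on opposite sides, and the WT hearts did not lie on 1 side. Both DM hearts were below all 6 embryo libraries for 6 of 6 genes, a pattern of 27.6% of all genes, and both sibling hearts were above all 6 embryo libraries for 6 of 6 (32.9%). Both patterns at once held for 46 of the 16998 genes (0.271%), these 6 included. As the 6 genes had been picked with these heart values known, nothing is read from that share. WT heart 1 was above every embryo for 5 of 6 genes, foxf2b being the exception. WT heart 3 was above every embryo for 1, nkx3.3, and below every embryo for barx1. The test of a genotype effect that differs between hearts and embryos would use the hearts on which the genes were picked and was not made.

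Among 11534 other genes with a mean of at least 5 CPM in hearts, those closest to the mean profile of foxf1, foxf2a, barx1 and nkx3.3 over the 6 hearts were rdh10a, hlx1, wdr74, inhbaa, mycn, pitx1, sh3pxd2b, cxcl12b, prkcsh and actr2a, with Pearson r from 0.97 to 0.99. rdh10a encodes a retinol dehydrogenase of retinoic acid synthesis. It had 12.1 and 11.8 CPM in DM hearts, against 99.1 and 82.1 CPM in sibling hearts and 79.0 and 16.1 CPM in WT hearts. hlx1, a homeobox gene whose mouse counterpart acts in gut mesenchyme, had 1.84 and 0.706 CPM in DM hearts, against 20.7 and 9.37 CPM in sibling hearts and 8.72 and 2.13 CPM in WT hearts. In both, WT heart 3 came next above the DM hearts, as it did for foxf2a.

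inhbaa, which encodes an activin subunit, had 2.39 and 2.59 CPM in DM hearts, against 39.2 and 34.8 CPM in sibling hearts and 17.4 and 5.43 CPM in WT hearts. pitx1, a homeobox gene of the first pharyngeal arch and the hindlimb in the mouse, had 2.39 and 3.06 CPM in DM hearts, against 26.8 and 15.6 CPM in sibling hearts and 21.3 and 3.11 CPM in WT hearts. cxcl12b, a chemokine gene, had 18.02 and 15.8 CPM in DM hearts, against 103 and 113 CPM in sibling hearts and 58.5 and 25.8 CPM in WT hearts. The other 5 differed less, such as actr2a with 130 and 135 CPM in DM hearts, 171 and 169 CPM in sibling hearts and 159 and 134 CPM in WT hearts. Over all 12 libraries inhbaa (r = 0.92), pitx1 (0.92), tbx2a (0.89), mgat1b (0.88) and pde5ab (0.88) were closest. With 6 points per gene, likeness of this kind describes these libraries and was the criterion by which the genes were named.

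**Figure D3:**
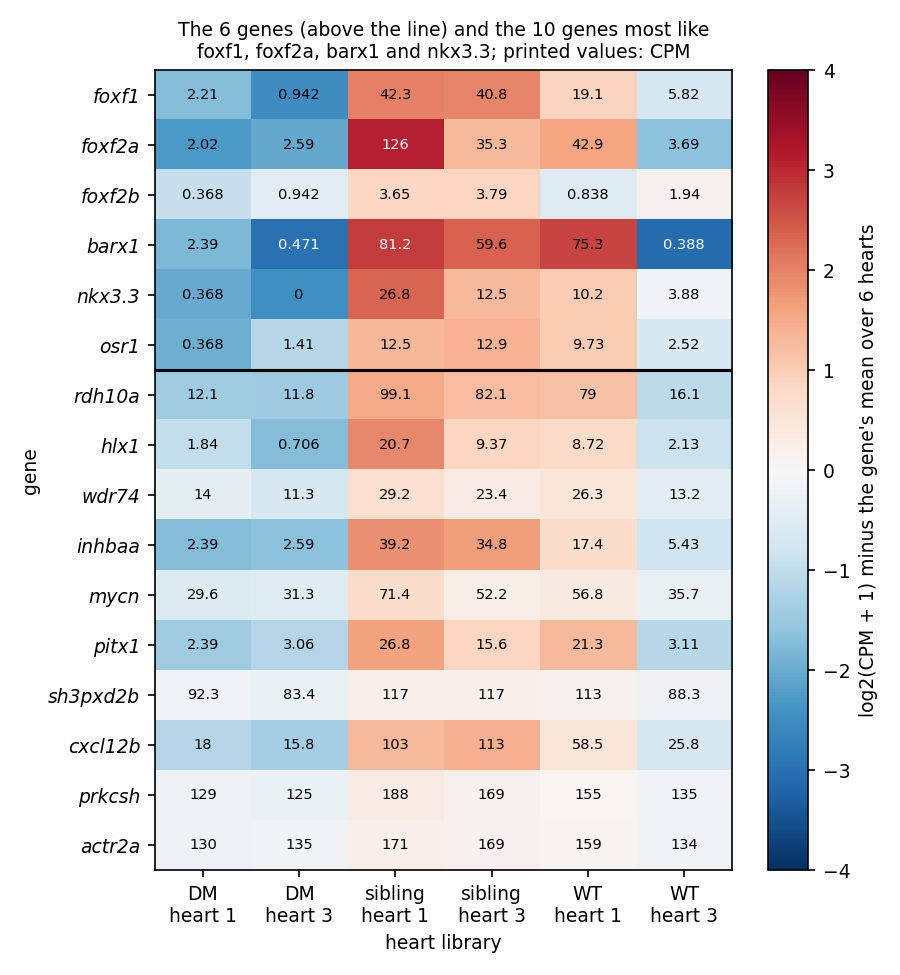
Heat map of the 6 genes (above the black line) and the 10 genes most like the mean of foxf1, foxf2a, barx1 and nkx3.3 in the 6 heart libraries. Colour gives log2(CPM + 1) minus the gene's own mean over the hearts, and each cell prints the CPM; every gene is lower in both DM hearts than in both sibling hearts, and WT heart 3 is the lowest control for each gene but foxf2b.

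Other genes of the foregut and visceral mesenchyme were followed through a list. It and the other lists had also been chosen with earlier results of these data known, so their counts and p-values describe these libraries and are no independent support. Of 24 such genes in the table, 19 were tested in hearts, and their median log2 fold change was -0.53 against siblings and -0.95 against WT hearts. None was called by edgeR (0% of all 16998 genes tested) or by DESeq2 in either comparison. 4 of 19 had an unadjusted edgeR p under 0.05 and were lower in DM than in sibling hearts, where 2.09% of all genes did. None was higher, where 1.25% of all genes were. In 6 of the 19, hlx1, tcf21, fgf10a, fgf24, foxc1b and foxp4, both DM hearts were below all 4 controls, beside 4.3% of all genes. The same held for foxl1, a forkhead gene that the filter on low counts left untested, with 0.184 and 0 CPM in DM hearts, against 6.08 and 1.56 CPM in sibling hearts and 1.84 and 0.776 CPM in WT hearts. Both DM hearts were also below all 4 controls for 3 of 8 epicardial genes, tcf21 among them, and for 3 of 18 endoderm genes. This held for 3 of 15 smooth muscle, 2 of 8 pronephros and 2 of 22 arch and cartilage genes. Elsewhere it held for 1 of 20 Hedgehog, 1 of 13 endothelial, 1 of 14 lens and retina and 0 of 15 cardiomyocyte genes. hlx1, whose levels are given above, had a log2 fold change against siblings of -3.53 ± 0.92 (SE). fgf24, a fibroblast growth factor gene, had 1.47 and 0.235 CPM in DM hearts, against 5.47 and 4.46 CPM in sibling hearts and 4.53 and 4.08 CPM in WT hearts. Its log2 fold change against siblings was -2.50 ± 0.87 (SE). tcf21, a factor of visceral and epicardial mesenchyme, had 1.10 and 0.942 CPM in DM hearts, against 8.82 and 4.46 CPM in sibling hearts and 6.20 and 1.55 CPM in WT hearts. hand2, which the heart itself expresses, had 258 and 338 CPM in DM hearts, within the 161 to 484 CPM of the control hearts. Not every gene of the list was lower in DM hearts. Of the 19 genes, 5 had a fitted value above 0 and 14 below 0 against siblings, and 1 and 18 against WT hearts. Summed, the 24 genes took 1298 and 1730 CPM in DM hearts, 2117 and 1955 CPM in sibling hearts and 2451 and 1484 CPM in WT hearts. DM heart 3 was thus above WT heart 3 in this sum. The sum was made up mostly of foxp4, pdgfra, hand2 and bmp4. In DM hearts these had 399 and 612, 313 and 353, 258 and 338, and 199 and 264 CPM, in that order. The sum therefore says little about the scarcer genes of the list.

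The foregut endoderm, the tissue that this mesenchyme surrounds, was followed through 21 genes. Of these 18 were tested, with a median log2 fold change of -1.04 in DM against sibling hearts and -0.51 against WT hearts, where it was 0.40 without WT heart 3. edgeR called none of them, with 5 lower, beside 2.09% of all genes, and none higher (1.25% of all genes) at an unadjusted p under 0.05 against siblings. Against WT hearts 3 were lower (3.14% of all genes) and 1 was higher (4.24%). Against siblings DESeq2 called 2 lower, foxa3 and hnf1ba, beside 0.28% of all genes. Against WT hearts DESeq2 called 1 lower, foxa3, beside 0.459% of all genes. foxa3, a forkhead gene of endoderm, had 5.70 and 7.77 CPM in DM hearts, against 53.5 and 39.7 CPM in sibling hearts and 22.5 and 23.3 CPM in WT hearts. Unlike barx1, it was as high in WT heart 3 as in WT heart 1. Its log2 fold change against siblings was -2.80 ± 0.43 (edgeR adjusted p = 0.723, DESeq2 adjusted p = 6.16e-05), and against WT hearts -2.05 ± 0.42 (edgeR adjusted p = 0.654, DESeq2 adjusted p = 0.0123). hnf1ba, a homeobox gene of gut, liver and kidney, had 4.41 and 3.297 CPM in DM hearts, against 30.4 and 27.7 CPM in sibling hearts and 7.21 and 11.4 CPM in WT hearts. Summed, the endoderm list took 643 and 327 CPM in DM hearts, 674 and 390 CPM in sibling hearts and 256 and 458 CPM in WT hearts, and none of its genes was at 0 in both DM hearts. The 4 most abundant genes, epcam, fabp2, insm1a and prox1a, made up 90.3% and 83.7% of that sum in DM hearts, 68.1% and 67.1% in sibling hearts and 73.7% and 75.5% in WT hearts. The other 17 genes summed to 62.2 and 53.2 CPM in DM hearts. Their sums were 215 and 128 CPM in sibling hearts and 67.2 and 112 CPM in WT hearts. Both DM hearts were below the 4 controls in this sum, but against WT heart 1 that rested on foxa3. For each DM heart the gap to WT heart 1 was smaller than the gap in foxa3 alone. epcam, an adhesion gene of epithelia, had 407 and 105 CPM in DM hearts, against 178 and 133 CPM in sibling hearts and 44.3 and 76.1 CPM in WT hearts. It was the gene at an unadjusted p under 0.05 that was higher than in WT hearts, with a log2 fold change of 1.77 ± 0.61 (edgeR adjusted p = 0.654), which was 0.58 without DM heart 1. The part of such tissue in the values of the 6 genes was not tested.

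The Hedgehog pathway, which drives Foxf genes in the mouse gut, was followed through 20 tested genes. They had a median log2 fold change of -0.026 in DM against sibling hearts and 0.13 against WT hearts, and no edgeR or DESeq2 call in either. At an unadjusted edgeR p under 0.05, 2 were lower (2.09% of all genes) and none higher (1.25%) than in siblings. Against WT hearts 1 was lower (3.14% of all genes) and 1 higher (4.24%). Both DM hearts were above all 4 controls for gas1a, gas1b and scube2, beside 9.17% of all genes. They were below them for ihha alone, beside 4.3% of all genes. scube2, which encodes a protein that helps release Hedgehog ligands, had 16.5 and 24.96 CPM in DM hearts, against 15.5 and 10.3 CPM in sibling hearts and 8.05 and 5.24 CPM in WT hearts. Its log2 fold change was 1.34 ± 0.51 against WT hearts (edgeR adjusted p = 0.661). The largest difference from siblings was that of ihha, a ligand gene of the gut endoderm, with 0.184 and 0.235 CPM in DM hearts, against 4.26 and 6.70 CPM in sibling hearts and 0.838 and 1.75 CPM in WT hearts. gli1, a target and effector of the pathway, had 3.13 and 13.4 CPM in DM hearts, against 30.4 and 23.2 CPM in sibling hearts and 18.6 and 9.70 CPM in WT hearts, and the DM and WT ranges overlapped. In embryos the pathway's median was -0.39, beside 0.024 for all genes, and edgeR called 0 of 20. With the replicate block it called 8 of 20 lower and none higher in DM embryos, beside 9.39% of all genes called lower, among them ptch1 (log2 fold change -0.71, adjusted p = 0.00576), gli1 (-0.58, 0.0163) and shhb (-0.63, 0.0239). The blocked call of ptch1 held with the span trend removed and without each pair. That of gli1 was lost with the span trend removed (adjusted p = 0.0770) and without pair 1 (0.121) or pair 2 (0.0827), and that of shhb without pair 1 (0.188) or pair 2 (0.0615). Such calls were not particular to this pathway. In the same blocked fit 12 of 13 lens and retina genes were called lower (median log2 fold change -2.90), as were 5 of 13 endothelial and endocardial genes (-0.30), 4 of 9 pronephros genes (-0.58), 4 of 20 endoderm genes, 3 of 15 cardiomyocyte genes, 3 of 25 arch and cartilage genes and 1 of 8 epicardial genes. The shares of the arch and epicardial lists were close to the 9.39% of all genes. Called higher, beside 4.37% of all genes, were 4 cardiomyocyte, 2 endoderm and 2 of 11 smooth muscle genes. The mesenchyme list in embryos had a median of -0.10. With the block edgeR called 2 of 23 lower, beside 9.39% of all genes, so nothing is read from that count. The 2 were foxc1a (-0.90, adjusted p = 0.00148) and foxp4 (-0.72, adjusted p = 0.00592). The call of foxp4 was lost without pair 1 (adjusted p = 0.0656) or pair 2 (0.0536).

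Smooth muscle genes, the later product of gut mesenchyme, had a median log2 fold change of 0.42 over 15 genes in DM against sibling hearts and -0.46 against WT hearts. Some were abundant in these hearts, such as myocd with 169 to 533 CPM in hearts and 2.76 to 6.27 CPM in embryos. The medians of this list therefore cannot be assigned to the gut wall alone. edgeR called none, and DESeq2 called 1 higher, desmb, a desmin gene, beside 0.0975% of all genes. It had 85.7 and 30.1 CPM in DM hearts, against 1.22 and 4.02 CPM in sibling hearts and 12.4 and 25.6 CPM in WT hearts (4.35 ± 0.80 against siblings, DESeq2 adjusted p = 5.97e-05, edgeR adjusted p = 0.830). It was thus higher in DM hearts, the other direction from the 6 genes. Its log2 fold change was 1.30 ± 0.68 against WT hearts, and that of sibling against WT hearts was -3.06 ± 0.77, which DESeq2 called (adjusted p = 0.0333, beside 0.0892% of all genes called lower) and edgeR did not (adjusted p = 0.913). Both DM hearts were also above all 4 controls for myh11a, a smooth muscle myosin gene, beside 9.17% of all genes. They were below all 4, as for foxf1, for smtnb (28.49 CPM in DM heart 3 and 28.53 CPM in WT heart 3). The same held for both gene models named mylka, which lie next to each other and may be split by the counting. This pattern was shown by 4.3% of all genes. mylka encodes a myosin light chain kinase. The first model (ENSDARG00000034801) had 10.1 and 13.4 CPM in DM hearts, against 27.97 and 29.7 CPM in sibling hearts and 46.95 and 22.5 CPM in WT hearts. Its log2 fold change was -1.31 ± 0.50 against siblings (edgeR adjusted p = 1.00) and -1.86 ± 0.50 against WT hearts (0.654). The second (ENSDARG00000090738) had 0.552 and 1.65 CPM in DM hearts, against 3.04 and 3.35 CPM in sibling hearts and 7.55 and 4.85 CPM in WT hearts, with log2 fold changes of -1.55 ± 0.81 against siblings and -2.78 ± 0.81 against WT hearts.

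In DM against sibling hearts the medians of the remaining lists were -0.52 over 22 pharyngeal arch and cartilage genes, -1.39 over 8 proepicardial and epicardial genes, -0.045 over 8 pronephros genes, 0.71 over 15 cardiomyocyte genes, 0.13 over 13 endothelial and endocardial genes and -1.11 over 14 lens and retina genes. Against WT hearts the medians were -0.45 for the arch, -1.45 for the epicardial and -0.55 for the pronephros list, and 3 lists turned sign, to -0.24 for cardiomyocyte, -0.62 for endothelial and 3.25 for lens and retina genes. Without WT heart 3 the arch and pronephros medians against WT were above 0, at 0.38 over 25 and 1.07 over 9 tested genes. The epicardial median was then -1.45. None of these genes was called by edgeR in DM against sibling hearts, and DESeq2 called 1, hnf1ba of the pronephros list, already described. aldh1a2, the retinoic acid synthesis gene of the epicardium, had 6.07 and 16.2 CPM in DM hearts, against 31.6 and 32.4 CPM in sibling hearts and 52.2 and 20.6 CPM in WT hearts.

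**Figure D4:**
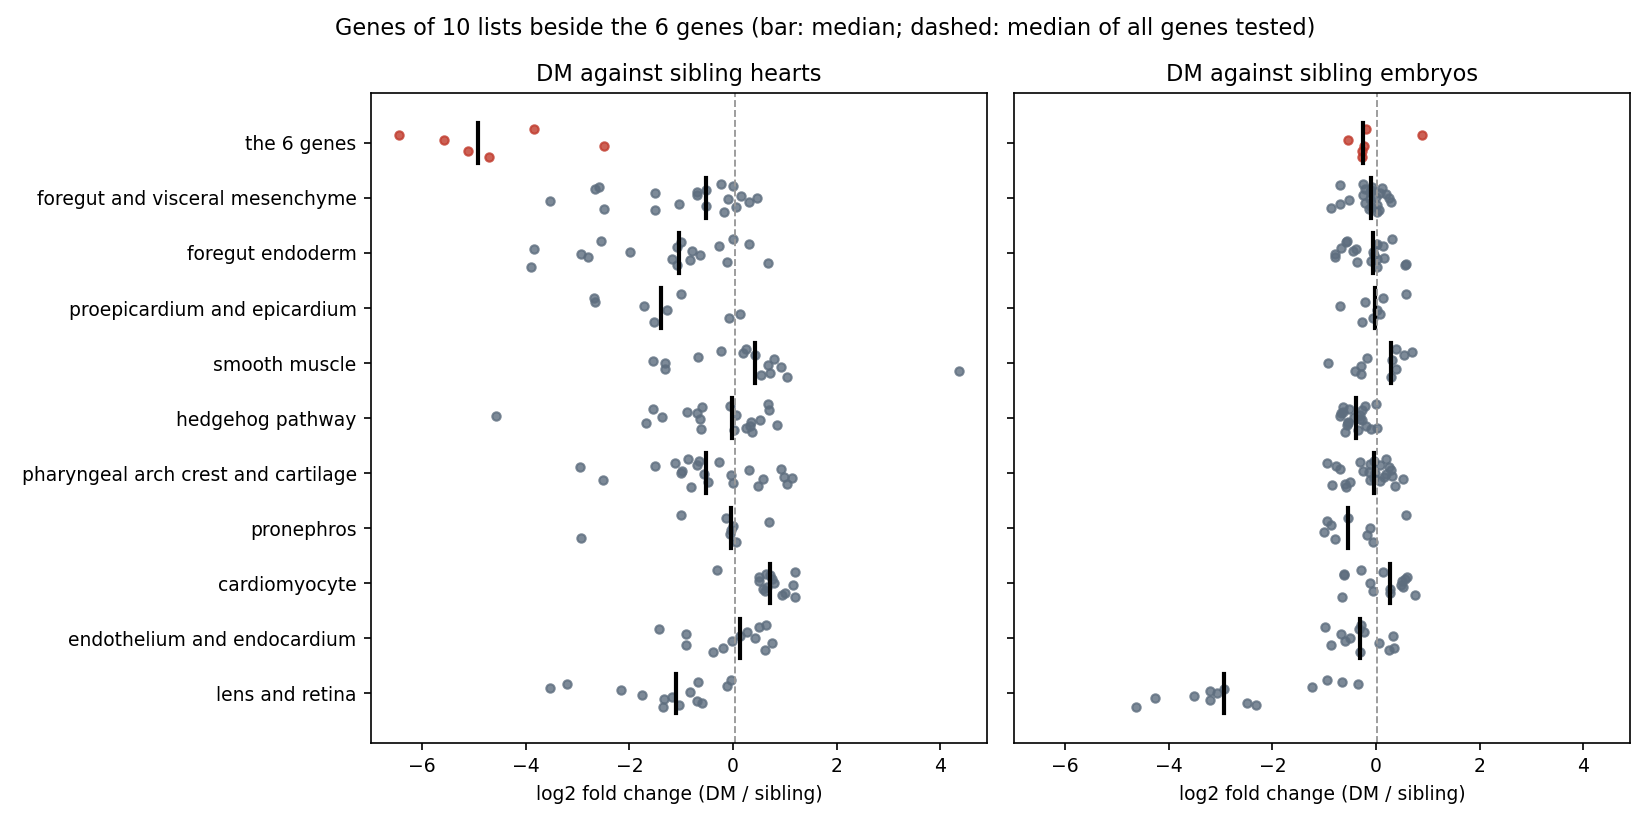
Log2 fold change (horizontal axis, DM over sibling) of each tested gene of 10 lists and of the 6 genes, in hearts (left) and embryos (right); black bars are list medians and the dashed line the median of all genes tested. In hearts the 6 genes have a median of -4.91, and the nearest list medians are -1.39 (epicardial) and -1.11 (lens and retina). The lens and retina value was 3.25 against WT hearts, and these genes were abundant only in DM heart 1 and sibling heart 1. In embryos the 6 genes have a median of -0.25.

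The 2 genes on each side of each of the 6 on their chromosomes were read for the same pattern. foxf2a and foxf2b each lie between a foxc1 and a foxq1 gene. foxc1a, 24.0 kb from foxf2a, had 23.2 and 46.6 CPM in DM hearts, against 35.0 and 31.7 CPM in sibling hearts and 46.3 and 29.7 CPM in WT hearts. foxc1b, 9.43 kb from foxf2b, had 13.4 and 14.1 CPM in DM hearts, against 23.7 and 15.8 CPM in sibling hearts and 34.4 and 25.8 CPM in WT hearts. Both foxc1 genes were thus well detected in DM hearts, foxc1a on both sides of the controls and foxc1b below all 4. ptpdc1a, 5.43 kb from barx1, had 11.95 and 10.8 CPM in DM hearts, against 18.2 and 10.7 CPM in sibling hearts and 9.73 and 6.99 CPM in WT hearts. wnt7aa, 42.1 kb from barx1, had 15.4 and 15.5 CPM in DM hearts. Its levels were 18.8 and 44.9 CPM in sibling hearts and 27.8 and 26.8 CPM in WT hearts. pyroxd2, 81.2 kb from nkx3.3, had 8.83 and 9.18 CPM in DM hearts. Its levels were 22.5 and 10.3 CPM in sibling hearts and 11.7 and 11.3 CPM in WT hearts. For wnt7aa and pyroxd2, as for foxc1b, both DM hearts were below all 4 controls, beside 4.3% of all genes. None of the other neighbours showed this pattern. Among the neighbours tested, the largest difference of DM from sibling hearts was that of nkx2.3, a homeobox gene of pharyngeal endoderm and gut mesenchyme that lies 7.34 kb from nkx3.3. It had 0 and 1.88 CPM in DM hearts, against 7.90 and 7.37 CPM in sibling hearts and 1.84 and 3.69 CPM in WT hearts, a log2 fold change of -3.03 ± 1.26 against siblings. DM heart 3 was level with WT heart 1 for nkx2.3. In embryos nkx2.3 had 6.43 to 7.31 CPM in DM and 6.73 to 7.77 CPM in sibling libraries. The largest difference of a tested neighbour from WT hearts went the other way, a log2 fold change of 3.46 ± 1.52 for foxq1b, next to foxf2b. foxq1b was scarce, with 2.57 and 0.471 CPM in DM hearts, 2.13 and 1.56 CPM in sibling hearts and 0 and 0.194 CPM in WT hearts.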

How the data were processed

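Total RNA of 6 dissected-heart and 6 whole-embryo libraries was analysed from the deposited tables of whole-number read counts per gene. Per the submitters' processing notes, GRCz10, STAR 2.3.0e and HTSeq 0.6.0 were used; how multi-mapped reads and strand were treated is not given in the sources used here. The 18 columns of values that the authors normalised were not used. CPM was computed as counts over the library total. Counts were tested with edgeR 4.0.16 (TMM factors, filterByExpr, quasi-likelihood test, Benjamini-Hochberg adjustment over all genes tested, threshold 0.05) in R 4.3.3, the 6 hearts in 1 fit and the 6 embryos in another; all 6 genes passed the filter in each. Whether replicates came from separate clutches is not stated, so p-values measure only the spread between these libraries. Alternatives were DESeq2 1.42.0, limma 3.58.1 (voom), other scale factors, no filter, a trend with gene span removed, compared groups only, a replicate block and each library left out. Equally numbered embryo libraries deviated together (r = 0.84, 0.66 and 0.28 over 17831 genes), so the block is given beside results it changes. The pairing was not clean, as sibling embryo 2 and DM embryo 3 had r = 0.49, above that of the pair numbered 3. The other unequally numbered embryo pairs had negative r. The genes and the 10 lists were chosen with earlier results of these data known. Named genes were the 6 genes, up to 3 per list with the smallest edgeR p in a comparison, those most like the mean of foxf1, foxf2a, barx1 and nkx3.3 by Pearson correlation of log2(CPM + 1), the neighbours on the chromosome, tet2 and tet3. The genes fgf10a, foxl1, hand2, pdgfra, bmp4, myocd, fabp2, insm1a, prox1a and those in counts of 6 or fewer were named after their values were seen. The main edgeR fit, without a block, was tested on simulated counts for DM against sibling embryos and DM against sibling hearts. The alternatives, the block among them, were not tested in this way.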

Additional observations from a re-analysis of the deposited data

How the results depend on the processing

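In DM against sibling embryos edgeR called 0 genes, DESeq2 36 and edgeR with the replicate block 2453; with a trend in gene span removed as well it called 2321. Leaving out 1 library gave 0 to 2 calls. Leaving out the pair numbered 1, 2 or 3 from the blocked fit, an alternative chosen after seeing the data, gave 536, 1227 and 3119 calls. In DM against sibling, DM against WT and sibling against WT hearts edgeR called 0 genes each, and DESeq2 62, 118 and 52. Without the filter on low counts edgeR called 3 genes in each of the first 2. Whether equally numbered hearts share more than a number is not stated. Their deviations correlated at r = 0.31 for sibling with DM, -0.24 for WT with sibling and -0.023 for WT with DM hearts. Lens and retina genes were abundant only in the DM and sibling hearts numbered 1. The replicate block gave 0 calls in all 3 heart comparisons. Swapping the WT numbers, an alternative chosen after seeing the data, gave 0 calls too.

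Of 185 refitted heart values of the 6 genes against siblings or WT, 1 was above 0, barx1 against WT hearts without WT heart 1 (1.58). Leaving out WT heart 3 put the median of all genes at 0.14 in DM against WT hearts, beside 0.017 with it. In embryos 3 values changed sign, none of them called: foxf2b (0.011 with the block and without pair 1) and osr1 (0.18 without sibling embryo 1 and 0.062 without DM embryo 3, in a range of -0.68 to 0.18 as each library was left out). The cause was not tested. Of the 10 genes most like foxf1, foxf2a, barx1 and nkx3.3 over hearts, 8 were kept with a pseudocount of 0.25 and 5 with genes of at least 1 CPM included. Depth limits foxf2b, nkx3.3 and osr1 most, with 6, 2 and 8 counts in both DM hearts together.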
